A study of Homo sapiens with 16 samples.

Results

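The 37 genes of the human mitochondrial chromosome were examined in 16 RNA-seq libraries of THP-1 cells, a cell line from a patient with acute monocytic leukemia. They were chosen by name, as every gene of the count table whose GENCODE symbol starts with MT-, which gave 37 of 60676 genes: 13 that encode proteins, 2 that encode ribosomal RNAs and 22 that encode transfer RNAs. Of these, 15 had counts, and they had counts in all 16 libraries, whereas the 22 tRNA genes, which are 59 to 75 bases long, were at 0 in all 16 libraries, which allows up to 3 counts per library where reads of such short genes can be counted at all. Whether they could be counted here was not tested. All 4 cell lines carried a stably integrated lentiviral short hairpin RNA under puromycin selection: shNC, the control hairpin, and shUHRF1, shDNMT1 and shDNMT3B, named for the DNA methylation genes UHRF1, DNMT1 and DNMT3B. Each line was kept for 48 h in DMSO, the solvent, or in 100 ng/ml PMA (phorbol-12-myristate-13-acetate), which drives THP-1 cells toward macrophages, with 2 libraries for each of the 8 groups. How many independent clones or infections a line stood for was not given in the sources used here, nor whether the 2 libraries of a group came from separate cultures, so p-values measure the spread between these libraries, which may be technical. The libraries were made from poly(A)-selected RNA and read as pairs of 150 bases.

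Mitochondrial DNA is transcribed as long RNAs from each strand that are cut into single messages, mostly at the tRNAs that lie between the genes, and most of its genes are read from the same strand. Its 13 proteins are core subunits of the enzymes of oxidative phosphorylation: complex I, which takes electrons from NADH, complex III and complex IV (cytochrome c oxidase), which pass them to oxygen, and complex V, the ATP synthase. Complex II is made of nuclear products alone, and all other subunits, the RNA polymerase, the ribosomal proteins and the enzymes that process mitochondrial RNA are also encoded in the nucleus. The rRNAs of the mitochondrial ribosome carry at most a short 3′ tail, while most of its messages are polyadenylated.

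The hairpin targets checked the labels only in part. In DMSO, UHRF1 stood at 72.0 and 91.2 CPM (counts scaled to library size) in the shUHRF1 libraries against 87.1 and 123 in shNC (replicate 1 and 2 each time), but in PMA at 9.62 and 12.2 against 4.62 and 7.43. DNMT1 stood at 82.4 and 111 in shDNMT1 against 89.6 and 140 in DMSO, and at 84.1 and 99.7 against 56.9 and 78.0 in PMA. DNMT3B stood at 6.40 and 6.87 in shDNMT3B against 8.73 and 9.73 in DMSO, and at 2.74 and 3.19 against 1.26 and 1.59 in PMA. In each line the targeted RNA was thus lower than in shNC at the same replicate number in DMSO and higher in PMA. This was not particular to the targeting line. In DMSO, shDNMT3B had DNMT1 at 73.3 and 102, below shDNMT1, and UHRF1 at 66.2 and 94.9. Only DNMT3B was lowest in its own line at both numbers in DMSO. In PMA all 3 RNAs were above shNC in every hairpin line, with UHRF1 highest in shDNMT1 (32.2 and 36.6). The targets therefore do not settle the labels, and the lines are given below as labelled. MMP9, a secreted protease of macrophages, separated the treatments, with 0.489 to 11.4 CPM in the 8 DMSO libraries and 4787 to 25705 in the 8 PMA libraries. The monocytic markers PTPRC, SPI1 and CEBPA had counts in all 16 libraries. Hemoglobin RNA stood out in 1 library, shNC DMSO replicate 1, with HBB at 232 CPM against at most 1.30 in each of the other libraries. Replicate 1 libraries held 20384066 to 23151864 gene counts and replicate 2 libraries 13883556 to 15679327.

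Where genes touch, the counting of reads per gene can lose or split them, so the junctions of the chromosome matter for the values below. On the plus strand of the mitochondrial chromosome (hg38, chrM, 16569 bases) the 2 rRNA genes and 12 of the 13 protein genes follow each other in 13 neighbouring pairs. Only 3 of these pairs share bases, and the same 3 have no tRNA between them: MT-ATP8 with MT-ATP6, MT-ATP6 with MT-CO3, and MT-ND4L with MT-ND4. MT-ND6 (chrM:14149-14673) is the only protein gene on the minus strand. The stretches are shown because of MT-ATP8, MT-ATP6 and MT-CO3. The fold changes of these genes with PMA differed most between shNC and the shUHRF1 or shDNMT1 line. As shares of the mitochondrial counts, MT-ATP6 and MT-CO3 also fell further in shDNMT3B than in shNC, as given below. The stretches are reference bases of the plus strand, read 5′ to 3′. Capitals mark the bases that a pair shares, and in the last stretch, for contrast, the first 15 bases of the tRNA gene MT-TG at the end of MT-CO3.
MT-ATP8, whole gene, chrM:8366-8572: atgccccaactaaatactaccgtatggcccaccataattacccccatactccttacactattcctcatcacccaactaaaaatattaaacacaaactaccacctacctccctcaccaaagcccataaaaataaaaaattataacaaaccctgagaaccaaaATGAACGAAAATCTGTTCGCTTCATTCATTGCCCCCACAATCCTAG
MT-ATP6 into MT-CO3, chrM:9192-9222: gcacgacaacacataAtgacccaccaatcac
MT-ND4L into MT-ND4, chrM:10745-10781: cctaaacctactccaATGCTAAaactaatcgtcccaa
MT-CO3 into MT-TG, chrM:9976-10005: attgatgagggtcttACTCTTTTAGTATAA
MT-ATP8 shares 46 of its 207 bases, or 22.2%, with MT-ATP6, MT-ND4L shares 7 bases with MT-ND4, and MT-ATP6 and MT-CO3 share 1 base, chrM:9207. Reads that fall in 2 genes are left uncounted by the usual setting of the counting tool, and the setting used was not given. Levels of MT-ATP8 and MT-ATP6 are therefore uncertain, as are those of MT-CO3, MT-ND4L and MT-ND4, which also meet a neighbour without a tRNA between. A comparison of the same gene between libraries meets the same bases each time, but whether the part of reads left uncounted was equal between libraries was not tested. The strand setting was not given either, so reads of MT-ND6 cannot be told apart from reads of the RNA opposite to it.

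The mitochondrially encoded genes differed widely in level, and the order of the leading genes differed little between groups. Levels of different genes were compared as CPM per kilobase of gene length. In shNC DMSO, MT-CO1, the catalytic subunit of complex IV, was highest, at 47074 in replicate 1 and 13465 in replicate 2. MT-CO2, its copper-binding partner, stood at 37150 and 11362, and the complex I subunit gene MT-ND4 at 35521 and 10617. MT-ND6, the complex I gene of the other strand, was lowest, at 157 and 51.1. The 2 libraries of this group lay much further apart than neighbouring genes in the order. Neighbours such as MT-ATP6, MT-RNR2, MT-ND1 and MT-ND4L had close means of 10780.5, 10627, 10400 and 10088. Within both libraries of this group MT-ATP6 stood above MT-ND1, and MT-ND1 above MT-ND4L. MT-RNR2 was the highest of these neighbours in replicate 1 (17059) but stood below MT-ATP6 and MT-ND1 in replicate 2 (4195). Within each library MT-CO1 stood above MT-CO2 and MT-ND4. MT-CO1 had the highest and MT-ND6 the lowest level in all 8 groups by the mean of both libraries. MT-RNR2, the large rRNA, was 6th in shNC DMSO, 4th in shNC PMA and 2nd in shDNMT3B PMA. The libraries were poly(A)-selected and the rRNAs carry at most a short tail. Their ranks therefore depend on capture as well as on abundance, and do not show whether rRNA was scarcer than MT-CO1. The part of capture in the levels of the rRNAs and of MT-ND6 was not tested.

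PMA treatment lowered the part of the library taken by mitochondrially encoded genes in every line. In shNC, these genes held 24.4% of all gene counts in DMSO and 10.3% in PMA in replicate 1, and 9.97% and 4.76% in replicate 2. In shUHRF1 the shares were 26.6% and 9.54% in replicate 1, and 9.86% and 3.92% in replicate 2. In shDNMT1 they were 28.0% and 7.71%, and 12.6% and 4.86%. In shDNMT3B they were 29.0% and 19.5%, and 14.5% and 9.35%. In each of the 8 pairs of 1 line and 1 replicate number the share was lower in PMA, but the PMA libraries of replicate 1 overlapped with the DMSO libraries of replicate 2. Over the 8 pairs the share changed by a mean of −1.19 on the log2 scale (SD 0.43, n = 8 pairs, exact two-sided permutation test by sign flips, p = 0.0078, the smallest that 8 pairs can give), or 0.437 times the DMSO share. The 2 pairs of a line are not fully independent, which the test does not take into account. The fall was deepest in shDNMT1 replicate 1 (log2 −1.86) and shallowest in shDNMT3B replicate 1 (log2 −0.57). In bulk RNA, fewer mitochondria, less mitochondrial RNA per mitochondrion and more RNA of the other genes cannot be told apart, nor can fewer cells of a type and less RNA per cell.

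**Figure D1:**
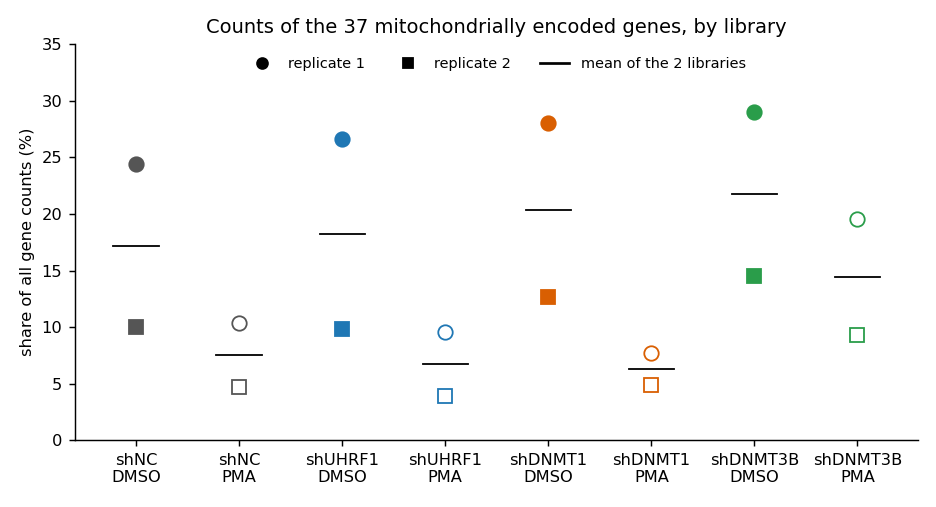
Share of all gene counts (%, y axis) held by the 37 mitochondrially encoded genes in each library, with circles for replicate 1, squares for replicate 2, filled symbols for DMSO and open symbols for PMA. Lines mark the mean of both libraries of a group. Every PMA symbol sits below the DMSO symbol of the same line and number, from 24.4% to 10.3% in shNC replicate 1, and every replicate 1 symbol sits above its replicate 2 symbol.

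The share differed between the replicate numbers by about as much as between the treatments. Replicate 1 held 1.59 times (shDNMT1 PMA) to 2.70 times (shUHRF1 DMSO) the share of replicate 2 of the same group. The mean difference over the 8 groups was 1.12 on the log2 scale (SD 0.23, n = 8 pairs, exact two-sided permutation test, p = 0.0078). All 8 pairs contrast the same 2 sets of libraries, so they are not independent and this p may be too small. The same direction was found in 4 of 4 DMSO groups (mean 1.22) and in 4 of 4 PMA groups (mean 1.03), where the smallest p that 4 pairs allow is 0.125. Within replicate 1 alone the PMA difference was −1.29, and within replicate 2 alone it was −1.10, with 4 of 4 lines lower each time. The labels name the number only as a replicate, and no date or run was used here, so what differed between both sets of libraries was not tested.

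With 4 pairs against shNC, no hairpin line could pass 0.05 in this test. The share of the shDNMT3B libraries was higher than that of shNC in 4 of 4 pairs, by a mean log2 of 0.67 (SD 0.34, n = 4 pairs, exact permutation test, p = 0.125). The shUHRF1 libraries were lower in 3 of 4 pairs, by a mean of −0.072 (SD 0.17, n = 4 pairs, exact permutation test, p = 0.5). The shDNMT1 libraries differed by 0.036 (SD 0.33, n = 4 pairs, exact permutation test, p = 0.875), with a higher share in 3 of 4 pairs and a lower one in PMA replicate 1. For the shDNMT1 line the direction of the mean was not stable, since it was −0.066 without the DMSO pair of replicate 2 and 0.19 without the PMA pair of replicate 1.

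The composition of the mitochondrial counts was examined next, taking each gene as a share of the mitochondrial counts of its own library, which removes the total. The 2 rRNAs took a larger part in PMA in 8 of 8 pairs. They held 8.28% to 14.8% of the mitochondrial counts in DMSO and 16.8% to 22.2% in PMA, without overlap. MT-RNR1, the RNA of the small ribosomal subunit, took 0.740% to 1.19% in DMSO and 1.66% to 2.08% in PMA. MT-RNR2, the RNA of the large subunit, took 7.50% to 13.9% in DMSO and 14.7% to 20.4% in PMA. MT-CO3, the third mitochondrially encoded subunit of complex IV, went the other way, from 7.49% to 10.03% in DMSO down to 4.09% to 5.68% in PMA. For these 3 genes the DMSO and the PMA libraries did not overlap, whereas for the other 12 genes with counts they did. The share of all gene counts held by the 2 rRNA genes alone changed by a mean log2 of −0.32 over the 8 pairs (exact permutation test, p = 0.0234, lower in 7 of 8), against −1.33 for the 13 protein genes alone (p = 0.0078, lower in 8 of 8, exact permutation test).

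**Figure D2:**
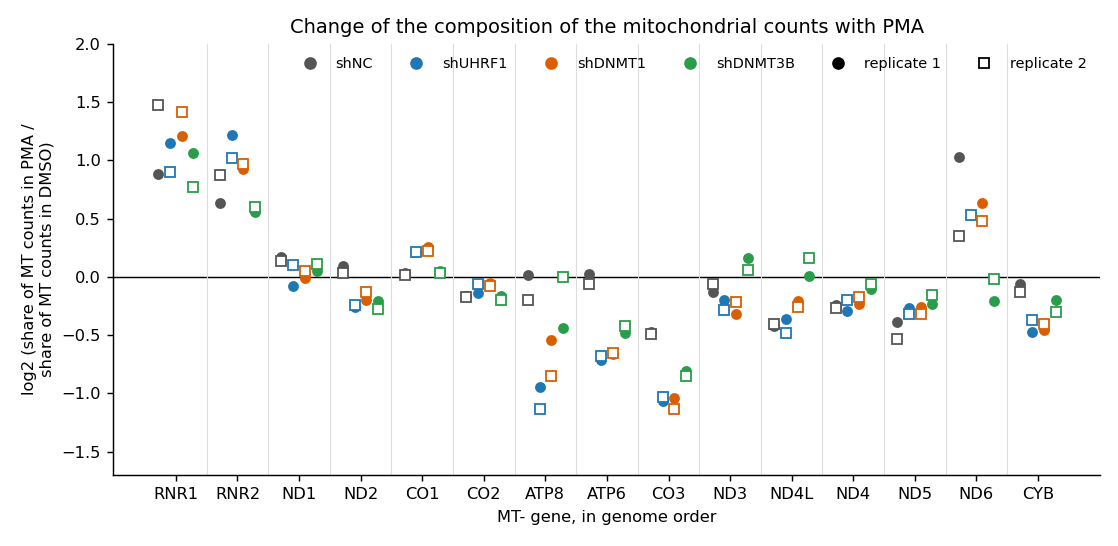
Change of each gene's share of the mitochondrial counts with PMA (y axis, log2 of the PMA share over the DMSO share) for the 15 genes with counts in genome order (x axis). Each symbol is 1 line and 1 replicate number, circles for replicate 1 and squares for replicate 2. MT-RNR1 and MT-RNR2 lie above 0 and MT-CO3 below 0 in 8 of 8 pairs, while MT-ATP8 and MT-ATP6 spread from about 0 in shNC down to −1.14 and −0.71 in shUHRF1.

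The other protein genes shifted less. The share of MT-CO1 among mitochondrial counts was higher in PMA in 8 of 8 pairs, by a mean log2 of 0.13, and those of MT-CO2, MT-ND4, MT-ND5 and MT-CYB were lower in 8 of 8 pairs, by means of −0.13, −0.20, −0.31 and −0.30. MT-CYB encodes cytochrome b of complex III, and MT-ND5 a proton-pumping subunit of complex I. MT-ND6 took 0.0308% to 0.0542% of the mitochondrial counts in DMSO and 0.0346% to 0.0841% in PMA, with a higher share in 6 of 8 pairs and a lower one in both shDNMT3B pairs. The ratio of MT-ND4 to MT-ND6 per kilobase was 121 to 226 in DMSO and 69.3 to 186 in PMA. These ranges overlapped, but the ratio was lower in PMA in 7 of 8 pairs, all except shDNMT3B replicate 1, where it went from 121 to 129. MT-ATP6 and MT-ATP8 encode subunits of complex V on 1 message. In shNC the MT-ATP6 share of mitochondrial counts hardly moved, with log2 values of 0.02 in replicate 1 and −0.06 in replicate 2. It was −0.71 and −0.68 in shUHRF1, −0.66 and −0.66 in shDNMT1, and −0.48 and −0.42 in shDNMT3B. For MT-ATP8 the values were 0.02 and −0.20 in shNC, −0.95 and −1.14 in shUHRF1, and −0.54 and −0.85 in shDNMT1. In shDNMT3B the MT-ATP8 value was −0.44 in replicate 1, with equal shares in replicate 2, which overlapped with shNC. For MT-CO3 the values were −0.47 and −0.49 in shNC, −1.07 and −1.03 in shUHRF1, and −1.04 and −1.14 in shDNMT1. They were −0.81 and −0.85 in shDNMT3B. The shares of MT-ATP6 and MT-CO3 thus fell further than in shNC in each of the other lines, shDNMT3B included.

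Single genes were tested with edgeR on normalised counts over 16503 genes, and called at an adjusted p under 0.05. Because the replicate numbers set the mitochondrial genes so far apart, each count of members is given without and with the number as a block. In shNC, 0 of the 15 genes with counts were called lower in PMA without the block, with 0 at an unadjusted p under 0.05 and 0 called by DESeq2, while 26.0% of all tested genes were lower. With the block, 12 of 15 fell, against 32.6% of all tested genes. The median log2 fold change of the 15 genes was −0.97 with the block, beside −0.0023 over all genes. No member was called higher, where 28.4% of all genes were higher without the block and 34.5% with it. Here and below, counts of members use the filter on low counts. Without the filter and without the block, 12 members were called for PMA in shNC.

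All 7 complex I genes had negative fold changes in shNC, from −0.17 (MT-ND6) to −1.34 (MT-ND5) with the block, and 6 of 7 fell. MT-ND4L, a small membrane subunit, stood at 4759 and 1233 CPM in DMSO and at 1649 and 600 in PMA. Its 2 libraries per group lay so far apart that the treatments overlapped, although PMA was lower at either number (log2 −1.30 ± 0.20 SE with the block, adjusted p = 4.85e-06, edgeR, against 0.193 without it). Complex III has 1 member, MT-CYB, which fell by 0.98 on the log2 scale with the block (adjusted p = 0.000111, edgeR, against 0.317 without it). All 3 complex IV genes fell with the block. MT-CO3 was the furthest down, from 21092 and 5794 CPM in DMSO to 7063 and 2661 in PMA, with log2 −1.35 ± 0.19 SE and an adjusted p of 8.60e-07 with the block, against −1.47 ± 0.94 and 0.205 without it (edgeR). MT-CO1 went from 72588 and 20764 CPM to 34379 and 13546. Both complex V genes fell with the block, MT-ATP8 by 0.97 and MT-ATP6 by 0.90 (adjusted p = 0.216 and 0.317 without it, edgeR). The rRNAs did not pass: MT-RNR2 stood at 26596 and 6541 CPM in DMSO and at 19113 and 7701 in PMA, lower in replicate 1 and higher in replicate 2, and MT-RNR1 gave 0.27 with the block (adjusted p = 0.436).

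**Figure D3:**
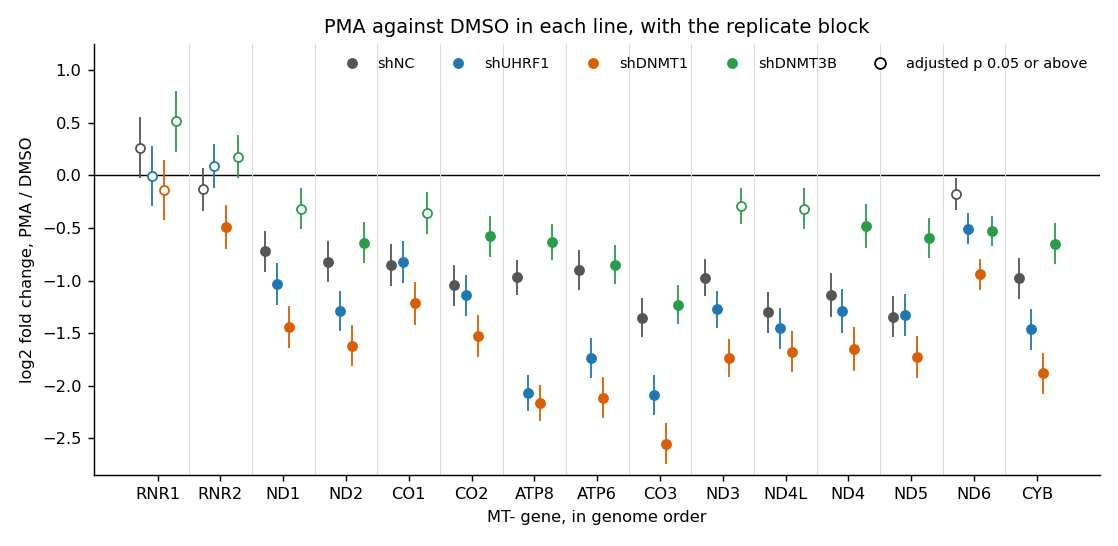
Log2 fold change of PMA against DMSO (y axis) for the 15 genes with counts (x axis, genome order) in each line, with the replicate block. Bars are standard errors from the model fit of all 16 libraries, after the replicate term, and do not show the spread between the 2 libraries of a group. Open symbols have an adjusted p of 0.05 or above. The protein genes lie below 0 in all 4 lines, lowest in shDNMT1 (MT-CO3 at −2.55), while MT-RNR1 and MT-RNR2 lie near or above 0 in most lines.

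The other lines were tested against their own DMSO libraries in the same way. In the libraries labelled shUHRF1, 1 gene, MT-ATP8, was called lower without the block, against 25.5% of all genes, and 13 of 15 with it, against 32.5%. MT-ATP8 stood at 708 and 285 CPM in DMSO and at 161 and 71.5 in PMA, and the treatments did not overlap. Its log2 fold change was −2.09 ± 0.69 SE without the block (adjusted p = 0.0207, edgeR) and −2.07 ± 0.17 with it. In the libraries labelled shDNMT1, 4 genes were called lower without the block (MT-ATP8, MT-ATP6, MT-CO3 and MT-ND5), against 24.1% of all genes, and 14 of 15 with it, against 31.0%. MT-CO3 went from 31242 and 9162 CPM to 4161 and 1944, again without overlap, with log2 −2.73 ± 0.98 SE (adjusted p = 0.0333, edgeR), or −2.55 ± 0.19 with the block. The calls without the block rested on single libraries: in shUHRF1 they numbered 0 without DMSO replicate 1 or PMA replicate 2 and 3 without DMSO replicate 2, and in shDNMT1 0 without DMSO replicate 1 or PMA replicate 2 and 1 without PMA replicate 1. MT-RNR2 was the only rRNA gene called in any line (log2 −0.49 in shDNMT1, adjusted p = 0.0422 with the block), and that call passed in 1 of 4 fits that left out 1 library, with log2 values from −0.93 to −0.18. In the libraries labelled shDNMT3B, 0 genes were called lower without the block, with 0 at an unadjusted p under 0.05 and 0 by DESeq2, against 19.7% of all genes. With it 9 of 15 were, against 27.5%, and that count was 3 without PMA replicate 1 and 5 without DMSO replicate 1. No member was called higher there, against 25.2% of all genes without the block and 32.5% with it. Median log2 fold changes of the 15 genes, with the block, were −1.29 in shUHRF1, −1.65 in shDNMT1 and −0.53 in shDNMT3B, with medians of all genes between −0.01 and 0.03. The 4 comparisons use separate libraries.

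The 3 hairpin lines were then compared with shNC before PMA. These 3 comparisons share the shNC DMSO libraries, of which replicate 1 is the library with hemoglobin RNA. Without the block, 0 of the 15 genes differed in any line, with 0 at an unadjusted p under 0.05 and 0 by DESeq2. Over all genes 1.31% differed in shUHRF1 in either direction, 0.570% were higher in shDNMT1 and 1.62% were higher in shDNMT3B. With the block, 0 of 15 differed in shUHRF1 (11.5% of all genes), 2 were higher in shDNMT1 (4.34%), and 3 were higher in shDNMT3B (7.28%). MT-ND6 was among the higher genes in both of the latter lines. It stood at 82.5 and 26.8 CPM in shNC, 169 and 44.9 in shDNMT1, and 171 and 39.8 in shDNMT3B, with log2 differences of 0.89 ± 0.15 SE (adjusted p = 0.000133) and 0.83 ± 0.15 (adjusted p = 0.000264) from edgeR with the block. MT-CO3 passed in both as well (0.61 and 0.59), but in 1 of 4 fits that left out 1 library in either line, where MT-ND6 passed in 4 of 4. In shDNMT3B the third was MT-RNR2, at 45914 and 14304 CPM against 26596 and 6541 in shNC (log2 0.94 ± 0.21 SE, adjusted p = 0.00272, edgeR with the block). Left-out libraries changed these counts too, to 1 in shUHRF1 without its DMSO replicate 2, to 1 in shDNMT1 without shNC replicate 2 or either shDNMT1 library, and to 1 in shDNMT3B without shNC replicate 2. In shDNMT3B the count was 4 without shNC replicate 1 and 2 without either shDNMT3B library.

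In PMA the lines parted. The libraries labelled shDNMT3B were higher than shNC for 15 of 15 genes. None passed without the block (0 called, 0 at an unadjusted p under 0.05 and 0 by DESeq2, against 11.3% of all genes higher and 9.05% lower), and 15 of 15 passed with it, against 20.5% of all genes higher and 19.5% lower. MT-RNR2 differed most, at 47862 and 17591 CPM against 19113 and 7701 (log2 1.25 ± 0.21 SE, adjusted p = 5.24e-05, edgeR with the block). MT-ND4L followed, at 3313 and 1307 against 1649 and 600 (log2 1.07), and MT-ND6 was least different (log2 0.47). The count was 6 without shNC replicate 1, 9 without shNC replicate 2, 7 without shDNMT3B replicate 2 and 11 without shDNMT3B replicate 1. The 6 genes MT-RNR2, MT-CO1, MT-ND3, MT-ND4L, MT-ND4 and MT-ND5 were called each time.

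In the libraries labelled shUHRF1 and shDNMT1 the genes of the MT-ATP8, MT-ATP6 and MT-CO3 stretch were the lowest against shNC in PMA. Without the block 0 of 15 were called in either line, with 0 at an unadjusted p under 0.05 and 0 by DESeq2, against 1.65% and 6.35% of all genes lower. With the block 3 of 15 were called lower in shUHRF1 (6.88% of all genes) and 4 of 15 in shDNMT1 (15.1%). MT-ATP8 stood at 294 and 136 CPM in shNC PMA, at 161 and 71.5 in shUHRF1 PMA, and at 128 and 87.5 in shDNMT1 PMA. Its log2 difference was −0.90 in each line (adjusted p = 0.000971 and 0.000369, edgeR with the block). MT-ATP6 gave −0.66 and −0.67, and MT-CO3 −0.55 and −0.59. The fourth gene in shDNMT1 was MT-ND2, a complex I subunit (−0.50, adjusted p = 0.0475). Leaving out 1 library kept only MT-ATP8 in shUHRF1 in each of 4 fits and gave 1 gene in shDNMT1 without shNC replicate 2 or shDNMT1 replicate 1, but 11 without shDNMT1 replicate 2. These comparisons share the shNC PMA libraries.

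**Figure D4:**
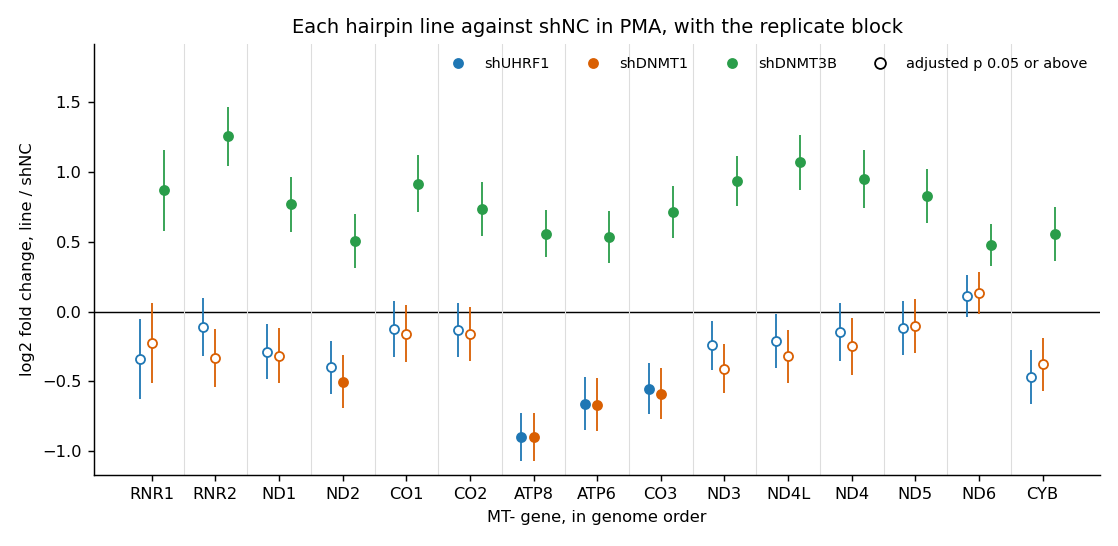
Log2 difference of each hairpin line from shNC in PMA (y axis) for the 15 genes with counts (x axis, genome order), with the replicate block. Bars are standard errors from the model fit of all 16 libraries, after the replicate term, and do not show the spread between the 2 libraries of a group. Open symbols stand for an adjusted p of 0.05 or above. The shDNMT3B points lie above 0 for all 15 genes, between 0.47 and 1.25. In shUHRF1 and shDNMT1 the lowest points are MT-ATP8, MT-ATP6 and MT-CO3.

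The difference between the PMA response of a line and that of shNC was tested directly. Without the block no member was called in any line, with 0 at an unadjusted p under 0.05 and 0 by DESeq2, where 0.109% of all genes responded lower in shUHRF1, 1.07% lower in shDNMT1 and 5.08% higher in shDNMT3B. With the block, 2 of 15 members responded lower in shUHRF1 (MT-ATP8 and MT-ATP6), against 2.47% of all genes. In shDNMT1 7 of 15 responded lower, against 5.81%, namely MT-ATP6, MT-CO3, MT-ATP8, MT-CYB, MT-ND2, MT-ND6 and MT-ND3. In shDNMT3B 1 of 15 responded higher, MT-ND4L, against 12.6%. The MT-ATP8 difference was −1.10 ± 0.24 SE in shUHRF1 (adjusted p = 0.00581) and −1.19 ± 0.24 in shDNMT1 (adjusted p = 0.00104) by edgeR with the block, and it stayed called when any 1 of the 8 libraries was left out. MT-ATP6 in shUHRF1 was at the threshold (adjusted p = 0.0499), and the count there was 1 without any of the 4 shNC libraries, DMSO replicate 1 or either PMA library of shUHRF1. In shDNMT1 it was 3 without its DMSO or PMA replicate 1, 4 without shNC DMSO or PMA replicate 2, and 13 without its PMA replicate 2. In shDNMT3B it was 0 without shNC DMSO or PMA replicate 1 or without shDNMT3B DMSO or PMA replicate 2, and 3 without shNC DMSO replicate 2. All 3 tests use the same shNC libraries.

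The replicate term of the model was itself tested over the 8 groups. All 15 genes were higher in replicate 1, against 19.4% of all genes higher and 20.9% lower. Their log2 differences ran from 1.13 (MT-ATP8) to 1.77 (MT-ND6), with a median of 1.495 beside −0.02 over all genes. Within the mitochondrial counts the shares of MT-RNR1, MT-RNR2 and MT-CO3 moved less with the number than with PMA, which was not so for every gene. MT-CO3 and MT-ND3 took the larger share in replicate 1 in 8 of 8 groups, by mean log2 values of 0.14 and 0.23, where the PMA means were −0.86 and −0.12. MT-ND5, MT-ND4, MT-ND2 and MT-ATP6 took the larger share in replicate 2 in 8 of 8 groups, by means of −0.28, −0.07, −0.07 and −0.12 for replicate 1 against replicate 2. The rRNA share did not follow the number in the same way in every group, with MT-RNR2 higher in replicate 1 in 6 of 8.

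The nuclear genes that build the same complexes were counted beside the mitochondrial ones. In shNC with PMA, 22 of 78 nuclear subunit genes of complexes I to V were lower and 1 higher without the block, and 54 were lower and 5 higher with it, with a median log2 fold change of −0.63. Of all tested genes 26.0% were lower and 28.4% higher without the block, and 32.6% and 34.5% with it. The share of these subunit genes that was lower without the block is thus near that of all genes. The share that was higher is below that of all genes in both fits. By complex, with the block, 27 of 37 fell in complex I, 4 of 9 in complex III, 8 of 11 in complex IV and 15 of 17 in complex V, while in complex II, which has no mitochondrially encoded subunit, 0 of 4 fell and 1 rose. NDUFB10, a complex I subunit, went from a mean of 82.1 ± 21.98 CPM (SD, n = 2 libraries) to 32.1 ± 2.10 (log2 −1.35, adjusted p = 0.000504, edgeR). In shDNMT3B against shNC in PMA, 23 of 78 were higher and 2 lower with the block, with a median of 0.26, against 20.5% and 19.5% of all genes, and 1 was higher and 0 lower without it, against 11.3% and 9.05%.

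Genes that copy, transcribe and process mitochondrial RNA did not move one way. Of 78 such nuclear genes, 11 were higher and 22 lower in shNC with PMA, or 17 and 30 with the block, with medians of −0.09 and −0.08. Of all tested genes 28.4% were higher and 26.0% lower, or 34.5% and 32.6% with the block, so the share of these genes that was higher is below that of all genes and the share that was lower is near it or somewhat above. For DNA maintenance, TOP1MT, the mitochondrial topoisomerase, went from a mean of 124 ± 23.1 CPM (SD, n = 2 libraries) to 35.01 ± 3.78 (log2 −1.82, adjusted p = 3.84e-06, edgeR). DNA2, a nuclease and helicase, and PRIMPOL, a primase, fell by 2.12 and 1.23. For transcription, POLRMT, the mitochondrial RNA polymerase, rose by 0.67 (adjusted p = 0.00140) and its initiation factor TFB2M by 1.26 (adjusted p = 0.0317), while TFAM, which packages mitochondrial DNA and starts transcription, gave 0.13 (adjusted p = 0.726), all from edgeR without the block. MRPL12, a ribosomal protein that also binds the polymerase, fell by 1.84. For processing, ELAC2, which cuts the 3′ ends of the tRNAs, fell by 1.06, and the RNA-modifying enzymes GTPBP3 and MRM2 fell by 1.17 and 0.83. For stability, LRPPRC and SLIRP, which form a complex that stabilises mitochondrial messages, fell by 0.79 and 1.30. PNPT1, the mitochondrial polynucleotide phosphorylase, went from 79.8 ± 4.02 to 266 ± 9.20 CPM (SD, n = 2 libraries, log2 1.74, adjusted p = 4.62e-07, edgeR), and its helicase partner SUPV3L1 gave 0.07 (adjusted p = 0.712). For translation, MTFMT, which formylates the initiator tRNA, and MTRF1L, a release factor, rose by 1.42 and 0.78, and TUFM, an elongation factor, fell by 1.45. Among regulators, the nuclear receptor ESRRA and its coactivator PPARGC1B rose by 1.13 and 1.46, and the transcription factor MYC fell by 1.24. NRF1, a transcription factor for nuclear genes of mitochondria, gave 0.21 and did not pass, nor did PPARGC1A, with means of 0.238 CPM in DMSO and 0.0361 in PMA. Each of these named genes was on the same side of the threshold with the block.

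**Figure D5:**
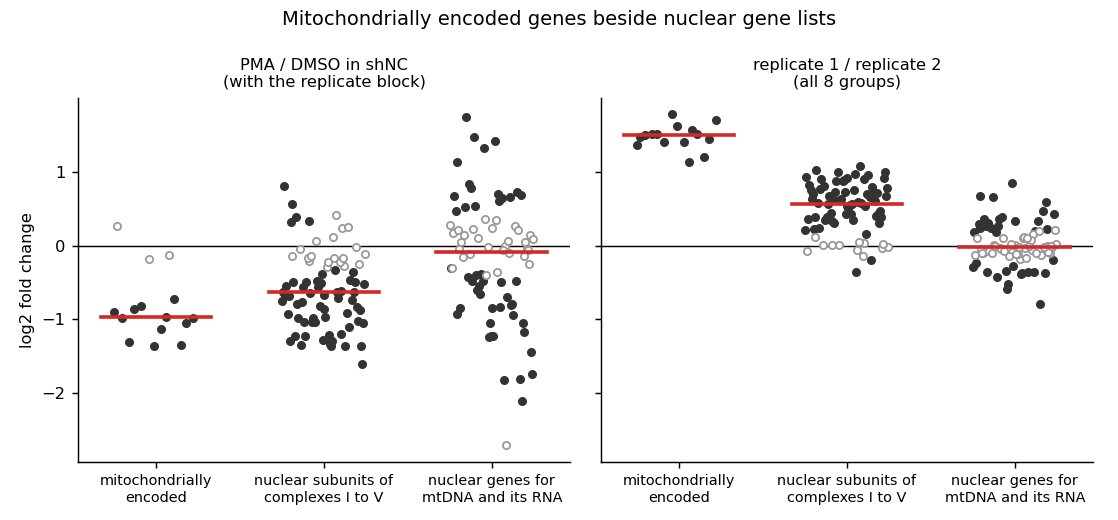
Log2 fold changes (y axis) of the 15 mitochondrially encoded genes with counts, 78 nuclear subunit genes of complexes I to V and 78 nuclear genes for mitochondrial DNA and RNA, for PMA against DMSO in shNC with the replicate block (left) and for replicate 1 against replicate 2 over the 8 groups (right). Each point is 1 gene, open where the adjusted p is 0.05 or above, and lines are medians. The medians are −0.97, −0.63 and −0.08 on the left and 1.495, 0.56 and −0.02 on the right.

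The same nuclear lists also moved with the replicate number. Of the 78 nuclear subunit genes, 64 were higher in replicate 1 and 2 lower, against 19.4% and 20.9% of all genes, with a median of 0.56. NDUFB9 of complex I and ATP5PD of complex V were each higher by about 1 on the log2 scale (1.03 and 1.07, adjusted p = 1.05e-10 and 5.42e-10, edgeR). Of the 78 genes for mitochondrial DNA and RNA, 21 were higher and 15 lower, with a median of −0.02. TFAM was lower in replicate 1 by −0.35 (adjusted p = 0.00307) and SLIRP higher by 0.84 (adjusted p = 7.08e-09, edgeR). Nuclear copies of mitochondrial genes, whose reads can be hard to place, summed to 5997 to 7076 CPM in DMSO replicate 1, 1615 to 2283 in DMSO replicate 2, 1556 to 4115 in PMA replicate 1 and 719 to 1613 in PMA replicate 2. All 9 of the copies tested were higher in replicate 1, with a median of 1.66. The part of shared reads in the mitochondrial values was not tested. RNAs that lack a usual poly(A) tail or stay in the nucleus summed to 286 to 389 CPM in DMSO replicate 1. They summed to 218 to 392 in DMSO replicate 2, and to 483 to 683 and 411 to 875 in PMA. Of 8 tested, 1 was higher in replicate 1. The sum mostly follows MALAT1 and NEAT1, with medians of 116 and 89.2 CPM in DMSO and 310 and 133 in PMA. Medians of RN7SL1, RN7SL2 and RPPH1 were lower in PMA, at 16.2, 14.7 and 0.960 against 24.4, 33.5 and 1.82. The median of SCARNA2 was also lower, and those of RN7SK, RMRP and SNORD3A were higher. The sum therefore gives no common direction for these RNAs. The part of the poly(A) selection in the rRNA shares, the MT-ND6 values and the ratio of MT-ND4 to MT-ND6 was not tested.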

How the data were processed

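The deposited file holds whole-number read counts per Ensembl gene for 16 libraries, not normalised by the authors. The authors had filtered paired reads of stranded poly(A) libraries, aligned them to hg38 with STAR 2.4.0b and counted them with HTSeq 0.6.1p1, and the submitters' notes also name Cufflinks 2.1.1 and edgeR. The annotation release and the strand setting were not given in the sources used here. Columns were assigned by the line, treatment and number in their own names, matched to sample titles. The descriptions of 12 samples name another condition than their titles and were not used. Symbols came from GENCODE release 44, which named 60357 of 60676 genes, and sequences from the hg38 mitochondrial chromosome.

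Counts were tested in R 4.3.3 with edgeR 4.0.16 (filterByExpr, minimum count 10 and total 15, TMM factors, robust quasi-likelihood fit of 8 groups, Benjamini-Hochberg over 16503 genes). CPM values in the text use the TMM-scaled library sizes. Shares of counts were compared by exact sign-flip permutation tests. The study's methods use no replicate block, so the fit without it is the main one. Samples with the same number deviated together in 28 of 28 pairs of groups (correlation 0.22 to 0.508, or 0.216 to 0.505 without the mitochondrial genes), so the number pairs the samples and the fit with the replicate block is given beside it. Alternatives were DESeq2 1.42.0, upper-quartile factors, scaling without the mitochondrial genes, no filter, fits of the compared libraries alone, and leaving out each library. A further alternative was an exact test after 3 rounds of DEGES scaling. The study names DEGES scaling with edgeR, but the exact test and the number of rounds were chosen here. The fits were tested on simulated data. Totals of 13883556 to 23151864 counts per library set the counting precision, and intervals over reads were not used because the spread between libraries was larger. Members, gene lists and tests were chosen with earlier results of these data known. Named nuclear genes were 10 fixed regulators and, per list, up to 3 with the smallest adjusted p for PMA in shNC. NDUFB10, NDUFB9 and ATP5PD were named after their values were seen.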

Additional observations from a re-analysis of the deposited data

Results flagged for a closer look

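All 10 results given here are differences between the PMA response of a hairpin line and that of shNC, on the log2 scale, that passed the edgeR test of the difference itself with the replicate number as a block. None of them passed without the block in the fit with the filter on low counts. In shUHRF1 the response of MT-ATP8 was lower by −1.10 (adjusted p = 0.00581) and that of MT-ATP6 by −0.84 (adjusted p = 0.0499). In shDNMT1 the differences were −1.22 for MT-ATP6, −1.20 for MT-CO3, −1.19 for MT-ATP8, −0.90 for MT-CYB, −0.80 for MT-ND2, −0.76 for MT-ND6 and −0.76 for MT-ND3, with adjusted p from 0.00104 to 0.0397. In shDNMT3B the response of MT-ND4L was higher by 0.99 (adjusted p = 0.0132). MT-ATP8 in both lines, and MT-ATP6 and MT-CO3 in shDNMT1, passed in 8 of 8 fits that each left out 1 library. In shDNMT1 the count of genes ran from 3 to 13 over those fits, and in shDNMT3B from 0 to 3. The libraries labelled shUHRF1, shDNMT1 and shDNMT3B had more, not less, RNA of the targeted gene than shNC in PMA. No group was tested for an outlying library, since each held 2 libraries.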

How the results depend on the processing

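The replicate block, whose numbers pair the samples, decided most calls in the fit with the filter on low counts. The count of members called for PMA in shNC, shUHRF1, shDNMT1 and shDNMT3B was 0, 1, 4 and 0 without it and 12, 13, 14 and 9 with it. Against shNC the block gave 2 and 3 in DMSO (shDNMT1, shDNMT3B), 3, 4 and 15 in PMA, and 2, 7 and 1 for the difference of responses, where each was 0 without it. Without the filter and also without the block, the counts in the same order were 12, 13, 13 and 4 for PMA. They were 1 and 1 in DMSO, 1, 1 and 6 in PMA and 3 for the shDNMT1 response. Dropping the filter alone thus moved the PMA counts toward those with the block. An exact test after DEGES scaling, also without the block, gave 6, 8, 12 and 1 for PMA. Upper-quartile factors gave 3 in shUHRF1, and fits of the compared libraries alone 3 in shUHRF1 and 10 in shDNMT1, again without it. Scaling without the mitochondrial genes, added after seeing the data together with the block, gave 1 in shUHRF1 DMSO. The cause of these moves was not tested. Upper-quartile factors shifted the median of all genes by about −0.29 in shNC with PMA, and TFAM (−0.15), SUPV3L1 (−0.21) and NRF1 (−0.071) turned negative there.

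Leaving out 1 library gave 0 to 3 calls in shUHRF1 and 0 to 5 in shDNMT1 for PMA without the block. With the block, a combination added after seeing the data, it gave 3 to 8 in shDNMT3B with PMA, 0 to 1, 1 to 2 and 1 to 4 in DMSO, 1 to 1, 1 to 11 and 6 to 11 in PMA, and 1 to 3, 3 to 13 and 0 to 3 for the responses. Single values turned sign: MT-ATP6 in shNC ran from −1.74 to 0.064, TFAM in shNC from −0.12 to 0.44 and MT-ATP8 in shDNMT3B from −1.32 to 0.21 without the block, and with it MT-RNR1 from −0.12 to 0.76 in shNC, −0.17 to 0.20 in shUHRF1 and −0.56 to 0.17 in shDNMT1 and MT-RNR2 from −0.37 to 0.14 in shNC and −0.041 to 0.25 in shUHRF1. A group left with 1 library was assumed to vary like the other groups.

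The PMA and replicate differences of the share kept their direction under each alternative, but 4 pairs cannot pass 0.05, as in replicate 1 (−1.29) or replicate 2 (−1.10) alone and in DMSO (1.22) or PMA (1.03) alone. The shDNMT1 share ran from −0.066 to 0.19 without 1 library and was −0.11 for the rRNAs. With 2 libraries a group, depth was not the limit for the 15 genes.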
